A study of Mus musculus with 5 samples.

Results

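The genes described here encode 10 scaffold proteins of the postsynaptic density, the protein layer beneath the receptors of excitatory synapses: the PSD-95 family (Dlg1, Dlg2, Dlg3 and Dlg4), the Shank family (Shank1, Shank2 and Shank3) and the Homer family (Homer1, Homer2 and Homer3). Members were all array probes whose platform gene symbol, ignoring case, was 1 of these names, which gave 14 probes of the 26423 on the array and covered 10 of 17778 genes named on it. The array measured RNA of whole striatum from 5 male FVB mice aged 12 months. Every mouse carried a Huntington's disease (HD) transgene, a fusion of GFP with exon 1 of human HTT holding 84 CAG repeats, and this gene was expressed from a human ubiquitin promoter, which is active in most cell types. The 3 mice called HD_miR196a also carried a miR-196a precursor transgene behind a human ubiquitin promoter, from a cross of the HD line with miR-196a mice, and the 2 mice called HD had the HD transgene alone. Mice without the HD transgene were not analysed here, so every difference below is HD_miR196a minus HD and none compares diseased with healthy striatum.

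Excitatory synapses in the striatum lie mostly on the spines of medium spiny neurons and receive glutamate from cortex and thalamus. Dlg proteins hold NMDA and AMPA receptor complexes at the membrane through PDZ domains, SAPAP proteins (Dlgap genes) tie them to Shank proteins, and Homer proteins link Shank to metabotropic glutamate receptors and to the inositol trisphosphate receptor of internal calcium stores. Homer1 also has a short, activity-induced form that lacks the part through which long Homer proteins assemble. Cortical neurons express the same scaffolds, and in whole tissue a smaller number of cells of a type and less RNA per cell cannot be told apart.

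The agent that separates the groups is miR-196a. Its main mature product and that of the related miR-196b are shown from RefSeq (GRCm38.p6) because the overexpressed RNA acts through its seed, bases 2 to 8, given in capitals. Which arm the transgene yields, and matches of the seed in the transcripts of the scaffold genes, were not analysed here.
mmu-miR-196a-5p: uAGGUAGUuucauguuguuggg
mmu-miR-196b-5p: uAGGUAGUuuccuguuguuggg
Both share 1 seed. The miR-196a sequence is the same from its gene at chr11:96265187-96265208 and its gene at chr15:102973365-102973386, both on the plus strand, and miR-196b lies at chr6:52230129-52230150 on the minus strand.

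Levels are log2 of quantile-normalized intensities, with a floor of 1 before the logarithm, and differences are on the same scale. Olfactory receptor probes, 543 in all and mostly silent in striatum, served as the background: the 95th percentile of their mean levels was 8.31. Of the 14 member probes 9 were at or above it, and the 5 below were the Shank2 probe, both Homer1 probes, the dimmer Dlg2 probe and the dimmest Homer2 probe. Medium spiny neuron markers were present as the tissue label requires, 10 of 11 measured above that percentile, and the exception was Drd2, whose probe read between 0.00 and 2.04. Whether such a low reading reflects the RNA or the probe was not tested, for Drd2 or for the member probes in the background range. Deposited median intensities were 160.0 to 166.3 in HD_miR196a mice and 184.3 to 185.6 in HD mice, so the scaling between arrays matters for direction and is given where it does.

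None of the scaffold genes passed the test between the groups. With limma, 0 of the 14 probes passed a Benjamini-Hochberg adjusted p of 0.05 over all probes, where 0% of the array passed (0 of 26423), and the smallest adjusted p of a member was 0.979. At an unadjusted p under 0.05 there were also 0 of 14, against 4.16% of all probes, and eBayes with trend and robust settings likewise called 0 members. The mice of the groups overlapped at every member probe, whereas 20.3% of all probes had groups that did not overlap. The largest difference in either direction was 0.23, at a Homer1 probe, and the median size over the 14 probes was 0.11. Each of the 14 intervals at 95% spanned 0. The lowest limit among them was -0.93, at the dimmest Homer2 probe, and the highest was 1.27, at the brighter Homer1 probe. The missed threshold therefore does not show equal levels.

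**Figure D1:**
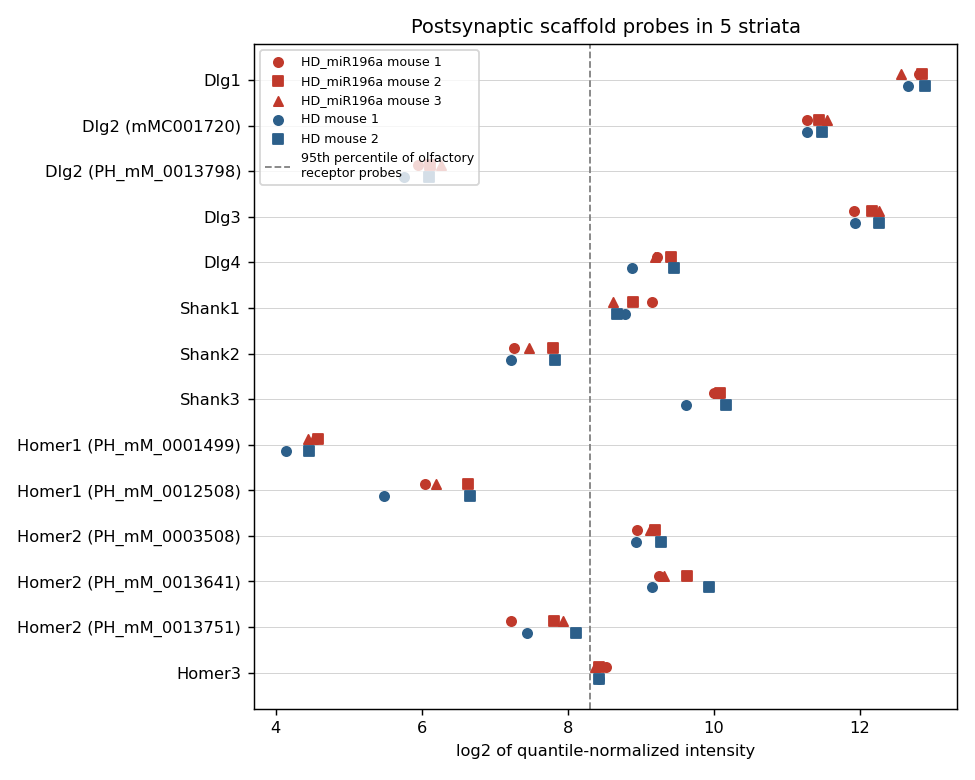
Level of each member probe, as log2 of quantile-normalized intensity, in the 3 HD_miR196a mice (red) and the 2 HD mice (blue), 1 row per probe and 1 symbol per mouse. The dashed line is the 95th percentile of olfactory receptor probes (8.31); in every row the red and blue points overlap in range.

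Dlg1 encodes SAP97, a family member found at synapses and also at cell junctions. Its probe measured 12.81, 12.85 and 12.56 in the HD_miR196a mice and 12.66 and 12.90 in the HD mice, here and below in the order of mouse number. HD_miR196a mouse 3 was the lowest and HD mouse 2 the highest, so neither group lay on 1 side. The group means were 12.74 ± 0.16 (SD, n = 3) and 12.78 ± 0.17 (SD, n = 2), a difference of -0.04 ± 0.14 (SE; limma adjusted p = 0.995). The interval of that difference, from -0.41 to 0.33, corresponds to a ratio between 0.75 and 1.26.

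Dlg2 encodes PSD-93, a scaffold of NMDA receptors and potassium channels. On its brighter probe the levels were 11.28, 11.44 and 11.55 in HD_miR196a mice and 11.28 and 11.48 in HD mice, a difference of 0.04 ± 0.13 (SE; limma adjusted p = 0.995). A second Dlg2 probe, below the olfactory receptor percentile, read 5.95, 6.12 and 6.27 against 5.76 and 6.10, a difference of 0.18 ± 0.16 (SE). On both probes mouse 1 of each group was below the other 3 mice.

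Dlg3, the X-linked gene of SAP102, which is prominent at developing synapses, followed almost the same order. It measured 11.92, 12.17 and 12.26 in HD_miR196a mice and 11.93 and 12.26 in HD mice. The mice numbered 1 stood at 11.92 and 11.93, and the other 3 mice at 12.17 to 12.26. The difference between the groups was 0.03 ± 0.17 (SE; limma adjusted p = 0.998). Centred on their own means, Dlg2 and Dlg3 were the 2 most alike of all pairs among the 10 genes, with a root mean square difference of 0.0502 over the 5 mice.

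Dlg4 encodes PSD-95, the most studied scaffold of the density. Its level was 9.23, 9.41 and 9.19 in HD_miR196a mice and 8.88 and 9.45 in HD mice. The HD mice held the lowest and the highest value, with all HD_miR196a mice between them. Their SD was 0.41 against 0.12 in HD_miR196a mice, and the difference of 0.11 ± 0.20 (SE; limma adjusted p = 0.988) was smaller than that spread.

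Of the Shank genes, whose products join the Dlg and SAPAP layer to Homer and actin, Shank3 is the one most tied to striatal synapses and to autism. Shank3 measured 10.01, 10.08 and 10.06 in HD_miR196a mice, a narrow band, and 9.62 and 10.17 in HD mice. HD mouse 1 was below every other mouse and HD mouse 2 above every other. The means were 10.05 ± 0.04 (SD, n = 3) and 9.89 ± 0.39 (SD, n = 2), which gave a difference of 0.16 ± 0.18 (SE; limma adjusted p = 0.979). Its sign depended on single HD mice: 0.43 ± 0.11 (SE) without HD mouse 2 and -0.11 ± 0.12 (SE) without HD mouse 1, with adjusted p of 0.755 and 0.921.

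Shank2 read 7.26, 7.80 and 7.47 in HD_miR196a mice and 7.23 and 7.82 in HD mice. The mice numbered 1 were close to each other and so were those numbered 2, while mouse 2 exceeded mouse 1 by 0.54 within HD_miR196a and by 0.58 within HD. The difference between groups was -0.01 ± 0.25 (SE; limma adjusted p = 1), and the probe was below the olfactory receptor percentile.

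Shank1 went another way than Shank2 and Shank3. It measured 9.15, 8.89 and 8.62 in HD_miR196a mice and 8.78 and 8.67 in HD mice, so mouse 1 was the highest of its group in both. The difference was 0.16 ± 0.18 (SE; limma adjusted p = 0.979). The oligodendrocyte markers, 9 genes, had list means of 12.38, 12.03 and 11.73 in HD_miR196a mice and 11.98 and 11.58 in HD mice. Mouse 1 was thus also highest in each group, which was not particular to that list. Striatal interneuron markers had means of 10.27, 9.71 and 10.12 against 10.18 and 9.66. Microglia markers had means of 10.57, 10.47 and 10.46 against 10.54 and 10.47. The part of these lists in the Shank1 values was not tested.

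Among the member probes at or above the olfactory receptor percentile, the range over the mice was widest at a Homer2 probe, 0.78, and narrowest at Homer3, 0.15. To show this family side by side, with Homer1 as its activity-induced gene, the 250 bases before the most upstream RefSeq start of each (GRCm38.p6, written in the direction of transcription) are given. Capitals mark the core motif of the cyclic AMP response element, TGACG, searched on both strands; the full element TGACGTCA contains it.
Homer1, chr13:93303507-93303756, plus strand: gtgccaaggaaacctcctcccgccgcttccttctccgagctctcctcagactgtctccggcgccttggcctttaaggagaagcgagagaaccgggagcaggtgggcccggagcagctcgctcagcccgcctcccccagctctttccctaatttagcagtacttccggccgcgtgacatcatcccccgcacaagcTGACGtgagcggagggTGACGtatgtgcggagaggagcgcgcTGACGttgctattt
Homer2, chr7:81706926-81707175, minus strand: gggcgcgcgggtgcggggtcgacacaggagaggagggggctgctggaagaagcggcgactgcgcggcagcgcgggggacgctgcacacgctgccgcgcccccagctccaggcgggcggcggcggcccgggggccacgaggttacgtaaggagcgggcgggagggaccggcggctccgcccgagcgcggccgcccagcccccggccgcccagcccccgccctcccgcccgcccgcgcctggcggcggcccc
Homer3, chr8:70282749-70282998, plus strand: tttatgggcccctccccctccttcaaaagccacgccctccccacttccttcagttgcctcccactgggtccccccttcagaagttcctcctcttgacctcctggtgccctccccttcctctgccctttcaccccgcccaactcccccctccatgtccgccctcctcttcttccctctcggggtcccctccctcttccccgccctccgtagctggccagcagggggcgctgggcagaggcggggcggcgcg
Homer1 held 3 core motifs and Homer2 and Homer3 held 0. At least 1 core motif was present in 17.8% of 32851 RefSeq promoter windows of that length, and the full element, which none of these 3 windows held, in 1.55%. GC content was 62.4% for Homer1, 83.2% for Homer2 and 68.0% for Homer3. Of the 10 scaffold genes, 8 had a promoter entry, and the other window with a core motif was that of Dlg3, with 1. These matches describe the letters only.

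Both Homer1 probes were in the background range. The brighter one read 6.05, 6.64 and 6.20 in HD_miR196a mice and 5.49 and 6.66 in HD mice, a range of 1.17 that exceeded the range of 87.8% of all probes. HD mouse 1 was lowest and HD mouse 2 highest, with the HD_miR196a mice between them. The difference was 0.22 ± 0.40 (SE; limma adjusted p = 0.987), with an interval from -0.82 to 1.27, the widest of the 14. The dimmer Homer1 probe measured 4.55, 4.58 and 4.45 against 4.14 and 4.46, a difference of 0.23 ± 0.13 (SE; limma adjusted p = 0.979). The sources used here do not say which Homer1 form each probe binds, so the short activity-induced form and the long forms were not separated.

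Homer2 was measured by 3 probes. The brightest read 9.25, 9.64 and 9.32 in HD_miR196a mice and 9.15 and 9.93 in HD mice, a difference of -0.13 ± 0.28 (SE; limma adjusted p = 0.992). The second read 8.95, 9.19 and 9.13 against 8.93 and 9.28, a difference of -0.01 ± 0.15 (SE). The dimmest, below the olfactory receptor percentile, read 7.22, 7.81 and 7.94 against 7.44 and 8.11, a difference of -0.12 ± 0.31 (SE). On all 3 probes HD mouse 2 was the highest mouse and mouse 1 of each group was below the other 3.

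Homer3, the family member best known from cerebellum, was the steadiest of the 10 genes. It measured 8.52, 8.43 and 8.37 in HD_miR196a mice and 8.43 in each HD mouse. Its range of 0.15 was narrower than that of most probes (5.1st percentile of all ranges), and the difference of 0.01 ± 0.09 (SE; limma adjusted p = 1) had an interval from -0.23 to 0.26, a ratio between 0.85 and 1.2. Deposited intensities were 332, 328.6 and 322 in HD_miR196a mice and 375.1 and 371.2 in HD mice, which do not overlap, but without scaling that held for 39.8% of all probes, 38.1% with HD_miR196a lower. Homer3 then differed by -0.19 ± 0.09 (SE; limma adjusted p = 0.391), close to the median of -0.20 over all probes.

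Directions over the whole set followed the scaling and the HD mice. With quantile normalization 9 of 14 probes were higher in HD_miR196a mice and 5 lower, where 49.3% of all probes were higher and 50.5% lower. With median centring 6 were higher and 8 lower, with 44.2% of all probes higher, and without scaling the split was 3 to 11. In that unscaled fit 16.7% of all probes were higher, and their median difference was -0.20. Without HD mouse 2 all 14 probes were higher, against 47.4% of all probes, and 2 had an unadjusted p under 0.05, those of Shank3 and the dimmer Homer1 probe, against 5.5% of all probes. Without HD mouse 1, 4 were higher and 10 lower, with 50.2% of all probes higher. With 1 HD mouse left, its spread is taken from the HD_miR196a mice. No direction is therefore stated for the set.

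**Figure D2:**
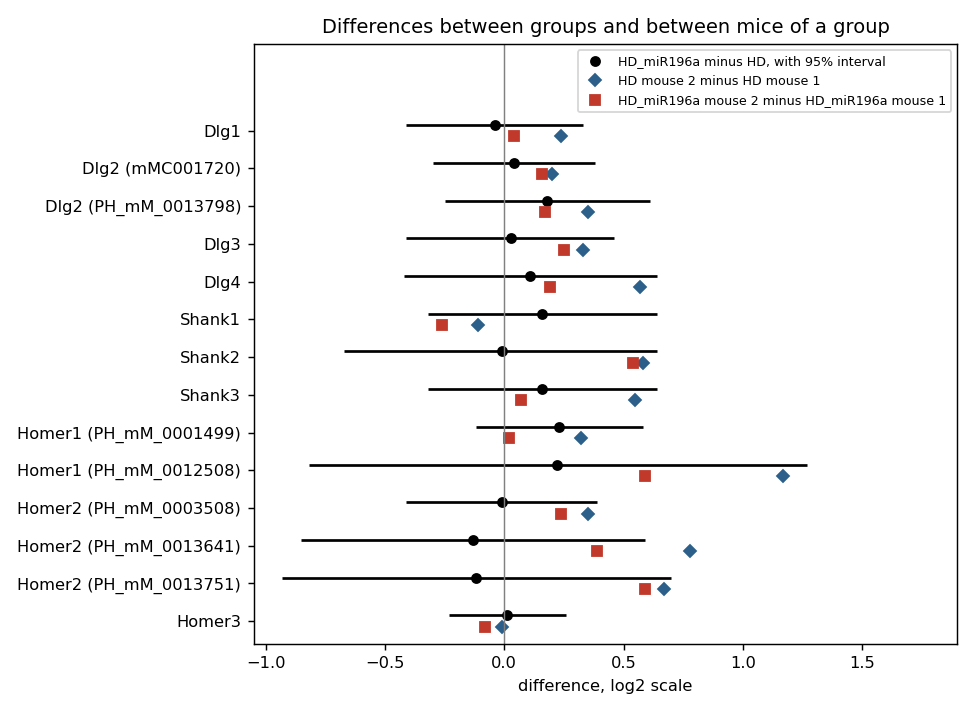
For each member probe, HD_miR196a minus HD with its 95% interval from limma (black), beside the difference between mouse 2 and mouse 1 within HD (blue) and within HD_miR196a (red), on the log2 scale. All black intervals cross 0, and the blue points reach 1.17 at Homer1 where no group difference exceeds 0.23.

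The widest gap between mice of 1 group exceeded the difference between the group means at each of the 14 probes. The share of all probes with such a gap was not counted, so this is not called particular to the members. HD mouse 2 exceeded HD mouse 1 at 12 of 14 probes, with a median difference of 0.35, whereas 47% of all probes were higher in HD mouse 2. A difference of at least 0.5 in that direction was seen at 6 of 14 probes, those of Dlg4, Shank2, Shank3 and Homer1 (brighter probe) and 2 of Homer2, against 9.3% of all probes. Shank1 and Homer3 were the exceptions, at -0.11 and -0.01. HD mouse 2 was the highest of the 5 mice at 8 of 14 probes, against 20.7% of all probes. In the other group HD_miR196a mouse 1 was the lowest of its 3 mice at 9 of 14 probes, against 34.5% of all probes. Mouse 1 of each group lay below the other 3 mice at 9 of 14 probes: both of Dlg2, those of Dlg3, Shank2 and Shank3, the brighter of Homer1 and all 3 of Homer2. Over all probes that order occurred in 13.7%, and among probes at or above the olfactory receptor percentile in 16.7%. These counts were chosen after the values were seen, and probes of 1 gene are not independent of each other.

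Markers of cortical projection neurons, the neurons of the tissue above the striatum, moved with that order. Their list mean, over 13 measured of 14 genes, was 9.12 and 9.43 in mouse 1 of HD_miR196a and of HD. It was 10.83 in the second and 10.58 in the third HD_miR196a mouse, and 11.04 in the second HD mouse. Mouse 1 of each group was below the other 3 for 10 of the 13 genes, and the summed intensity of the list ranged from 18930 to 44780 in HD_miR196a mice and from 18820 to 49120 in HD mice. Slc17a7, the vesicular glutamate transporter of cortical neurons, measured 8.47 and 8.82 in mouse 1 of the groups and 11.05 to 11.87 in the other 3. Neurod6 measured 5.83 and 7.21 against 9.49 to 10.73. These 2 genes and Neurod2 had wide ranges over the mice (3.40, 4.90 and 5.15) and weigh most in the list mean. Cux2, Lamp5 and Rasgrf2 did not have that order, with ranges of 0.52, 0.41 and 0.52. Rasgrf2 measured 11.70, 11.47 and 11.99 in HD_miR196a mice and 11.99 and 11.61 in HD mice. Activity-induced immediate early genes, 12 in all, had list means of 9.64 and 9.81 in mouse 1 of the groups. The other HD_miR196a mice were at 10.11 and 10.34 and the other HD mouse at 10.91. Mouse 1 of each group was below the other 3 mice for 8 of these 12 genes, and Fosl2 was highest in mouse 1 of each group.

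With the cortical list mean as a covariate the standard error became smaller at 11 of 14 member probes, where it did so at 67.9% of all probes. Its median went from 0.17 to 0.13 over the members and from 0.15 to 0.12 over all probes. For Shank2 the difference was 0.00 ± 0.13 (SE), for the brighter Homer1 probe 0.25 ± 0.24, for Shank3 0.17 ± 0.15 and for the brightest Homer2 probe -0.12 ± 0.18. With the covariate 0 members were called by limma (smallest adjusted p = 0.826), and 0 had an unadjusted p under 0.05. The covariate itself sets mouse 1 of each group below the other 3 mice, the order seen at 9 of 14 member probes. It also takes up a residual degree of freedom. The fit therefore cannot tell cortical RNA from anything else with that order. Whether cortical RNA accounts for the differences between mice was not tested.

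**Figure D3:**
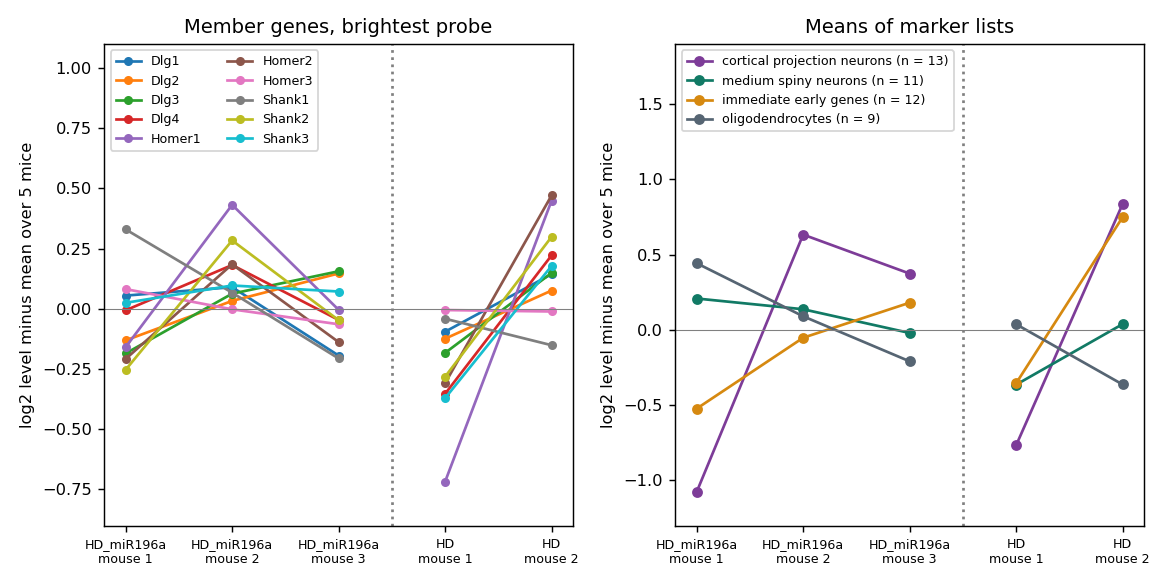
Log2 level minus the mean over the 5 mice, for the brightest probe of each of the 10 scaffold genes (left) and for the means of 4 marker lists (right), with lines joining mice of 1 group only to guide the eye. Homer1 and Homer2 dip in HD mouse 1 and peak in HD mouse 2, the cortical list is lowest in mouse 1 of each group (9.12 and 9.43 before centring), and Homer3 stays flat.

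Of 11 measured markers of medium spiny neurons 9 had higher means in HD_miR196a mice, 6 of them without overlap (against 9.96% of all probes higher without overlap) and 6 with an unadjusted p under 0.05 (against 4.16%), while 5 overlapped. None passed the limma test over all probes (smallest adjusted p = 0.979). Summed intensity of the list was 86430 to 92470 in HD_miR196a mice and 67710 to 75820 in HD mice. Their median difference was 0.33, and over the 10 scaffold genes, by the brightest probe, it was 0.03. Oligodendrocyte markers had a median difference of 0.28, with sums of 54590 to 73130 and 46760 to 58670. For astrocytes the median difference was -0.03 and the mean 0.79, which includes a Slc1a3 probe at the floor in HD mouse 1 (sums 108800 to 122900 and 110800 to 111000), for microglia 0.06 (13310 to 15070 and 14700 to 16380), for endothelium 0.07 (4455 to 4469 and 4160 to 4455) and for striatal interneurons 0.04 (33720 to 39240 and 32050 to 40320). Immediate early genes had a median difference of -0.36, with sums of 23180 to 37130 and 24680 to 54590. Of these 12 genes 10 were lower in HD_miR196a mice, where 50.5% of all probes were lower. The groups overlapped at each, and 0 of the 12 had an unadjusted limma p under 0.05. The part of these lists in the scaffold values was not tested.

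Genes whose profile over the mice was closest to the 3 most variable scaffold genes were sought among 8659 named genes above the olfactory receptor percentile, by the root mean square difference of centred log2 levels over the 5 mice. For Homer1 they were Stard8 (0.0869), Nrgn, which encodes the postsynaptic calmodulin-binding protein neurogranin (0.0874), and Dlgap2 (0.0876), where the median over all candidates was 0.453. Nrgn measured 12.44, 13.26 and 12.78 in HD_miR196a mice and 12.10 and 13.27 in HD mice. For Homer2 the closest were the phosphatase gene Dusp7 (0.0361), the adaptor gene Nck2 (0.0474) and Thrsp (0.0485). For Shank2 they were Tmem198 (0.00952), Speg (0.0262) and the neuronal calcium sensor gene Hpcal4 (0.0291). The Homer1 and Shank2 probes used here were themselves below the olfactory receptor percentile, at mean levels of 6.21 and 7.52. With 5 mice and 8659 candidates such closeness is a description only.

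Among the direct partners, 3 of the 4 SAPAP genes had a wide spread between mice. Dlgap1 measured 10.56, 11.53 and 11.31 in HD_miR196a mice and 10.69 and 11.80 in HD mice, a difference of -0.11 ± 0.45 (SE), and its dimmer probe differed by -0.20 ± 0.32. Dlgap3, the striatum-rich member, measured 12.49, 12.91 and 12.69 against 12.18 and 13.01, a difference of 0.10 ± 0.29. Dlgap2 differed by 0.13 ± 0.33 and Dlgap4 by -0.01 ± 0.13. For Dlgap1, Dlgap2 and Dlgap3, mouse 1 of each group was below the other 3 mice, and for Dlgap4 it was not.

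None of the receptor genes whose products these scaffolds hold passed the test. Grm5, the metabotropic receptor bound by Homer, measured 12.77, 12.68 and 12.76 in HD_miR196a mice and 12.69 and 12.80 in HD mice, a difference of 0.00 ± 0.09 (SE), and its dimmer probe differed by 0.18 ± 0.13. Itpr1, the calcium store receptor, measured 12.69, 13.10 and 13.11 against 12.38 and 13.02, a difference of 0.26 ± 0.25. The NMDA receptor subunits Grin1 and Grin2b differed by 0.10 ± 0.14 and 0.07 ± 0.17, and Grin2a, in the background range, by 0.17 ± 0.38.

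Over the whole partner list, 59 of 64 genes were measured, 29 were higher and 30 lower, and the median difference was 0.00, as over all probes. By limma 0 of 59 passed the adjusted threshold, and 1 had an unadjusted p under 0.05, which was Cacng4, an AMPA receptor auxiliary subunit. It measured 7.95, 7.95 and 8.12 in HD_miR196a mice and 7.71 and 7.65 in HD mice (difference 0.33 ± 0.10, SE; limma adjusted p = 0.979), levels below the olfactory receptor percentile. The groups did not overlap at 7 of 59, 4 of them higher, against 20.3% of all probes.

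By class, 10 of 14 receptor genes and 10 of 14 genes of signalling enzymes and actin linkers were higher, 8 of 22 scaffold partners, and 1 of 9 adhesion genes. Among signalling genes the smallest p-values belonged to the Rap GTPase-activating protein gene Sipa1l1 (0.21 ± 0.12, SE), the cortactin gene Cttn (-0.15 ± 0.09) and the kinase gene Camk2b (0.17 ± 0.13). Scaffold partners were led by Tanc1 (-0.36 ± 0.24, in the background range), Cask, a membrane-associated guanylate kinase (-0.15 ± 0.11), and Tanc2 (-0.25 ± 0.17). For adhesion they were the neuroligin gene Nlgn2 (-0.25 ± 0.14), whose product is found mainly at inhibitory synapses, Lrrc4c (-0.17 ± 0.11) and Lrrtm4 (-0.23 ± 0.18, in the background range), and among receptors Cacng3 followed Cacng4 and Itpr1 (0.20 ± 0.20). All of these had a limma adjusted p of 0.979. Mouse 1 of each group was below the other 3 mice for 26 of the 59 partner genes, against 13.7% of all probes.

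**Figure D4:**
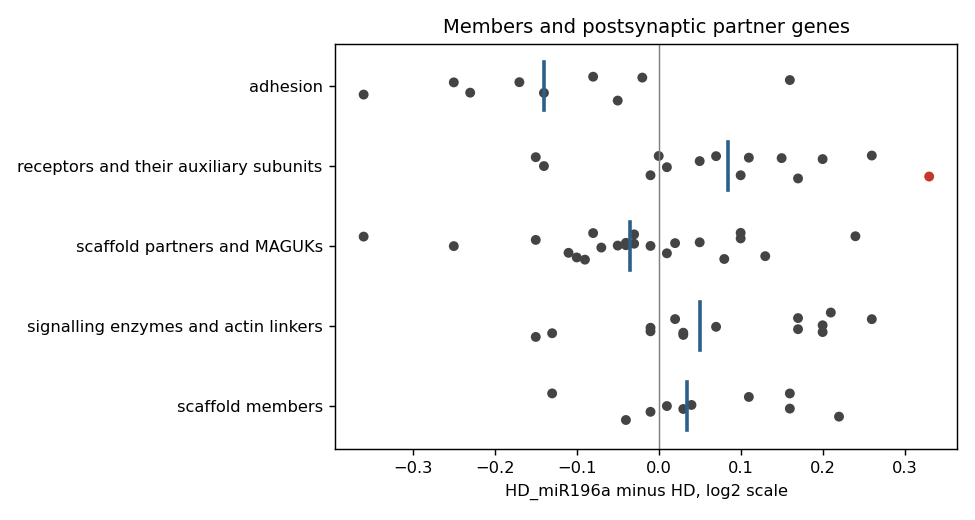
HD_miR196a minus HD on the log2 scale for the brightest probe of each of the 10 scaffold genes and of 59 partner genes in 4 classes, 1 point per gene (vertical scatter is random), with the class median as a blue bar. Cacng4 (0.33, red) is the only gene at an unadjusted p under 0.05, and the scaffold genes lie between -0.13 and 0.22.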

How the data were processed

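Striatal RNA of 5 mice (3 HD_miR196a, 2 HD) was amplified, labelled with Cy5 and hybridised to a 1-colour array, per the labels' protocols. The deposited table gives each probe a linear intensity per mouse, in which the authors combined 2 technical repeats, per the labels; values slightly below 0 show that background had been subtracted. The sources used here do not give the scanner, software or scaling. Groups and mouse numbers came from the sample titles.

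Intensities were quantile-normalized, floored at 1 and log2-transformed. All 26423 probes were fitted with limma 3.58.1 in R 4.3.3 (lmFit, eBayes, with 3 residual and 1.75 prior degrees of freedom), two-sided, with Benjamini-Hochberg adjustment over all probes. The p-values set each group difference against the spread between these mice, moderated over all probes. The fit was tested on simulated data. The number of arrays limits the precision. Of the probes 20377 had a platform symbol. Where 1 probe per gene was used it was the brightest by mean. Of each partner class 3 genes were named by smallest p, beside a set of direct partners, and likeness was given for the 3 scaffold genes with the widest range. The members and lists were chosen with earlier results of these data known. Alternatives covered scaling, floor, a filter, variance model, weights, mouse number, the cortical covariate and mice left out.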

Additional observations from a re-analysis of the deposited data

How the results depend on the processing

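The count of 0 called member probes and of 0 called partner genes held in every setting run, which says little about stability since with 5 arrays differences of the sizes seen could hardly pass the threshold. Over all probes the 0 calls became 5 with a floor of 16, 2 with a floor at the median of olfactory receptor probes, 3 with eBayes trend and robust settings and 0 to 3 with 1 mouse left out, none a scaffold or partner gene. Probes at an unadjusted p under 0.05, 1099 in the reported fit, became 3641 without scaling, 1674 with a floor of 16 and 528 in the brighter part of the array, where fewer probes were tested. Member probes at that threshold, 0 in the reported fit, numbered 0 to 2 with 1 mouse left out, 2 without HD mouse 2. Partner genes at it, 1 of 59 in the reported fit against 4.16% of all probes, became 7 of 59 without scaling, against 13.8%. They numbered 2 with a floor of 16 (6.34% of all probes), the floor at that median (5.72%) or the cortical covariate (5.24%). With 1 HD_miR196a mouse left out they numbered 0 to 1, against 3.18% to 5.47% of all probes. Without scaling the median difference became -0.184 for the scaffold genes and -0.238 for partner genes, beside a shift of -0.20 over all probes.

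Signs of uncalled member differences changed as follows. With median centring Dlg2 (brighter probe) was -0.03, Dlg3 -0.04 and Homer3 -0.02. Without scaling Dlg2 and Dlg3 were -0.21, Dlg4 -0.11, Shank1 -0.05, Shank3 -0.07 and Homer3 -0.19. Without mouse 1 of each group Dlg3 was -0.04, Dlg4 -0.15, Shank3 -0.09, the brighter Homer1 probe -0.23 and Homer3 -0.02. With array weights Shank2 was 0.06 and the second Homer2 probe 0.01, and with the cortical covariate Shank2 and the second Homer2 probe were 0.00. With 1 mouse left out Dlg1 ranged from -0.16 to 0.08, Dlg2 (brighter) from -0.06 to 0.14, Dlg3 from -0.14 to 0.19, Dlg4 from -0.18 to 0.40, Shank2 from -0.30 to 0.28, Shank3 from -0.11 to 0.43, Homer1 (brighter) from -0.36 to 0.80, Homer2 from -0.52 to 0.25 (brightest), -0.18 to 0.16 (second) and -0.45 to 0.22 (dimmest), and Homer3 from -0.03 to 0.05. Without scaling and with mice left out the cause was not tested.

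Mouse numbers 1 and 2 occur in both groups, and the deviations of same-numbered mice from their group means had correlations of 0.236 and 0.17 across probes. With 2 HD mice their deviations are equal and opposite, so these correlations are not separate readings. Only 2 numbers are shared, and the sources used here do not say whether same-numbered mice were paired or processed together. Such a link was not tested. With the replicate block, 2021 probes (4 mice, 7.65% of all) or 2020 (5 mice, 7.64%) had an unadjusted p under 0.05. Of the 59 partner genes 2 did so in each. In these fits Dlg1 was 0.05 in both, Dlg2 (brighter) -0.02 and -0.03, Dlg3 -0.04 in both and Shank2 0.01 in both. With the floor at that median the dimmer Homer1 probe was at the floor in all mice and gave no value. Low signal limits Shank2, Homer1, the dimmer Dlg2 probe and the dimmest Homer2 probe.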
